A study of Caenorhabditis elegans with 52 samples.

Results

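The genes described here are 8 regulators of the choice between stem cell division and meiosis in the germ line of Caenorhabditis elegans, chosen by name from the 45461 gene IDs of the count tables. They are glp-1 (F02A9.6 in the files), lag-1 (K08B4.1), lst-1 (T22A3.3) and sygl-1 (T27F6.4) of the Notch side, and gld-1 (T23G11.3), gld-2 (ZC308.1), gld-3 (T07F8.3) and nos-3 (Y53C12B.3) of the meiotic side. All 8 were found and passed the filter on low counts in every fit, where 16323 genes were tested in the 46 libraries from liquid culture. PolyA RNA came from whole young adult hermaphrodites of 3 genotypes. The double mutant puf-8; lip-1, here PL, gave 24 libraries, the double mutant puf-8 fbf-1, here PF, gave 10, and the wild type N2 gave 18. Worms were kept in S medium with OP50 bacteria and either 100 uM U0126, an inhibitor of the kinase MEK, or DMSO, its vehicle, for 1, 2, 4, 6 or 18 h (N2 had no 4 h groups and PF no 18 h groups), or were collected untreated. PUF-8 and FBF-1 belong to the PUF proteins, which bind and regulate mRNAs, and the phosphatase LIP-1 acts against the ERK pathway. Germ lines of either double mutant are known to make sperm in place of oocytes, and the labels name no alleles.

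In the gonad of C. elegans, the distal tip cell sends a Notch signal that keeps the nearest germ cells dividing. GLP-1 is the receptor, LAG-1 the DNA-binding protein that carries the signal to target genes, and lst-1 and sygl-1 are target genes whose products maintain stem cells together with PUF proteins. As germ cells leave the signal, RNA regulators of the GLD pathways bring about entry into meiosis: GLD-1 and NOS-3 repress mRNAs in one arm, and GLD-2, a polyA polymerase, acts with its partner GLD-3 in the other.

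Between 5370270 and 35120700 reads were counted in genes per library. The 52 libraries formed 29 groups: 2 of 3 libraries, 19 of 2 and 8 of 1, the last all PF in U0126 or DMSO. Nothing in the labels tells whether replicates came from separate cultures, so the p-values reflect the spread among these libraries, which may be technical. Of the mutated genes, lip-1 was at most 3.72 CPM (CPM here is edgeR's library-size-normalized read count, with TMM-scaled library sizes) in PL, against 48.3 to 96.4 CPM in 17 of 18 N2 libraries, and fbf-1 was at most 3.89 CPM in PF, against 13.7 to 52.7 CPM in those 17. puf-8 was at 3.23 to 36.6 CPM in PL and 3.38 to 11.8 CPM in PF, against 90.9 to 221 CPM in the same 17. The remaining library, labelled N2 untreated replicate 2, stood apart, with lip-1 at 11.5 CPM, fbf-1 at 11.3 CPM and puf-8 at 26.2 CPM. Of these only puf-8 was within the PL range, which reached 12.1 CPM at 1 to 6 h and 36.6 CPM at 18 h. In N2 untreated replicate 2 the 14 sperm markers summed to 3590 CPM and the 16 oocyte markers to 719 CPM. In N2 untreated replicate 1 they summed to 39.5 and 15300 CPM. PL replicates 1 and 2 at 1 h had molt markers at 1100 to 1880 CPM in sum, against 83.9 and 95.9 CPM in replicate 3.

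PL worms had less mRNA of all 8 regulators than N2 worms during the first 6 h, and the gap had narrowed by 18 h. At 2 h in DMSO glp-1 was at 51.3 and 51.1 CPM in PL, against 360 and 335 CPM in N2. By edgeR's quasi-likelihood test the log2 fold change was -2.76 (SE 0.18, adjusted p = 6.36e-12). The receptor mRNA was 6.77-fold lower in PL, with no overlap between the groups. In whole worms, fewer germ cells of a type and less RNA per cell cannot be told apart. lag-1 was at 25.1 and 22.5 CPM in PL, against 131 and 135 CPM in N2 (log2 fold change -2.48). Of the Notch targets, sygl-1 was at 14 and 11.7 CPM in PL, against 120 and 116 CPM in N2 (log2 fold change -3.19, SE 0.28, edgeR adjusted p = 7.54e-10), and lst-1 was at 33.9 and 38.3 CPM in PL, against 120 and 120 CPM in N2 (log2 fold change -1.73). The fitted difference of these target genes was 9.13-fold for sygl-1 and 3.32-fold for lst-1.

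On the meiotic side at 2 h in DMSO, gld-1 was at 128 and 119 CPM in PL, against 1000 and 729 CPM in N2 (log2 fold change -2.80, SE 0.25, edgeR adjusted p = 8.44e-10). gld-3 was at 81.3 and 84.7 CPM in PL, against 398 and 362 CPM in N2 (log2 fold change -2.19), and nos-3 was at 73 and 74.8 CPM in PL, against 243 and 223 CPM in N2 (log2 fold change -1.66). gld-2 fell least, to 166 and 188 CPM in PL, against 289 and 268 CPM in N2 (log2 fold change -0.65, SE 0.12, edgeR adjusted p = 6.82e-05). All 8 members were lower in PL at 1, 2 and 6 h in DMSO, where 31.9, 32.9 and 36.1 percent of all genes tested were called lower, and at the same hours in U0126, where 32.2, 32.3 and 32.5 percent were. The members' median log2 fold change in DMSO was -2.59 at 1 h, -2.34 at 2 h and -1.92 at 6 h, while the median over all genes tested was 0.59, 0.45 and -0.09. Without PL replicates 1 and 2 at 1 h, the log2 fold changes in DMSO at 1 h ran from -3.18 (gld-1) to -0.99 (gld-2) and all 8 stayed called.

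The wider pathways were low in PL as well at 2 h in DMSO. Of 17 other Notch pathway genes tested, 14 were lower and 2 higher in PL (median log2 fold change -1.52), with the metalloprotease gene sup-17 (-2.50) and the presenilin gene hop-1 (-3.06) among the 14. Of 19 PUF, GLD and meiotic-entry partners 18 were lower (median -1.75), among them prom-1, which acts in meiotic entry (-2.36), and nos-1, a Nanos homologue (-2.81). All 14 GLD-1 target mRNAs, which the GLD-1 protein binds and represses, were lower (median -3.63), among them the cyclin gene cye-1 (-3.16). All 18 meiotic chromosome genes (median -1.80) and 13 of 14 replication and mitosis genes (median -3.12) were lower too.

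Both germ line and body markers differed between these genotypes. At 2 h in DMSO, 12 of 14 general germline markers were lower in PL, with a median log2 fold change of -1.26 and sums of 2460 and 2680 CPM in PL, against 5340 and 5010 CPM in N2. gld-2 fell 0.61 less than that median on the log2 scale, whereas sygl-1 fell 1.93 more and gld-1 1.54 more. The 16 oocyte markers summed to 3780 and 3700 CPM in PL, against 12600 and 12300 CPM in N2. Their mean log2 of CPM plus 1 was 5.99 and 5.83 in PL, against 9.20 and 9.17 in N2. The 14 sperm markers summed to 1670 and 2060 CPM in PL, against 37.8 and 52.9 CPM in N2, where only spe-38, in replicate 1, was at 0. All 8 muscle markers were higher in PL, at 11700 and 10900 CPM in sum, against 1950 and 4940 CPM in N2. The part of these shifts in the members' values was not tested.

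At 18 h the groups were closer, and so were the germline markers. The germline markers' median log2 fold change was 0.03 in DMSO and -0.35 in U0126. In DMSO the oocyte markers summed to 11500 and 9110 CPM in PL, against 8630 and 8300 CPM in N2. Their mean log2 of CPM plus 1 went the other way, at 8.29 and 7.93 in PL, against 8.72 and 8.66 in N2. The part of these markers in the members' values was not tested. In DMSO, glp-1 was at 165 and 144 CPM in PL, against 238 and 240 CPM in N2 (log2 fold change -0.63, SE 0.17, edgeR adjusted p = 0.00343). sygl-1 was at 81 and 66.6 CPM in PL, against 69.8 and 66.9 CPM in N2, and the ranges overlapped. 6 of 8 members were lower in PL in DMSO, where 31.1 percent of genes were, and sygl-1 (0.11, SE 0.26) and gld-2 (0.11, SE 0.12) did not pass the test. In U0126 at 18 h, 5 of 8 were lower in PL (glp-1, lag-1, lst-1, gld-3 and nos-3), where 22.1 percent of genes were. gld-1 was at 828 and 778 CPM in PL, against 942 and 986 CPM in N2 (log2 fold change -0.26, SE 0.23, edgeR adjusted p = 0.355). These 18 h calls depended on the scaling: with RLE size factors gld-1 (-0.42) and nos-3 (-0.18) no longer passed in DMSO and gld-2 did (0.30), and in U0126 gld-1 (-0.61) and gld-2 (-0.52) did too. In DMSO gld-1 was lost without N2 replicate 1 (adjusted p = 0.138), N2 replicate 2 (0.0555) or PL replicate 2 (0.221), and without the last also glp-1 (0.0502) and nos-3 (0.15). With no filter glp-1 (-0.35, adjusted p = 0.2), gld-1 (0.304), gld-3 (0.0685) and nos-3 (0.901) were lost in DMSO, and with all 52 libraries in the fit the same 4 were (0.0512 to 0.338). In U0126 nos-3 was lost without N2 replicate 1 (0.187), N2 replicate 2 (0.0636) or PL replicate 1 (0.0903), and glp-1 (0.275) and nos-3 (0.446) with all 52 libraries. sygl-1 passed in U0126 with DESeq2 (-0.60) and without PL replicate 1 (-0.93), and gld-2 without PL replicate 2 (-0.50).

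**Figure D1:**
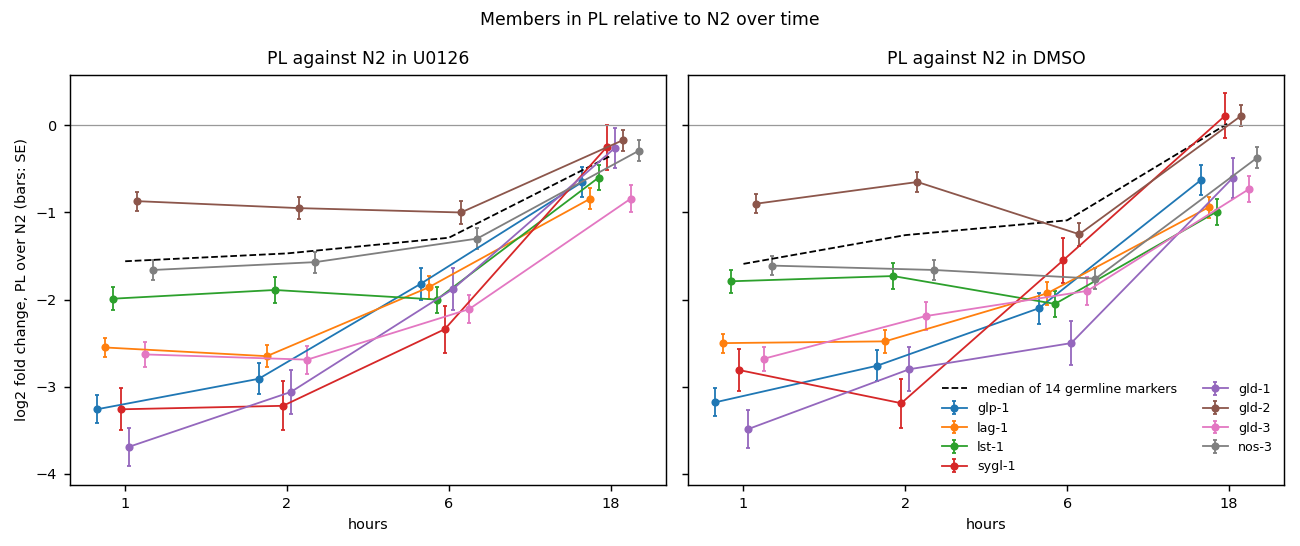
Log2 fold change of each member in PL over N2 at 1, 2, 6 and 18 h, in U0126 (left) and in DMSO (right), with bars of 1 SE and the median of 14 germline markers as a dashed line. At 2 h in DMSO sygl-1 is lowest at -3.19 and gld-2 highest at -0.65, and at 18 h all members lie between -0.99 and 0.11.

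Compared per length (CPM per kb of exon), gld-1 was the most abundant member and lag-1 the least in N2 in DMSO at 2 h, at 390 and 28.3 CPM per kb. In PL in DMSO at 2 h gld-1 was again highest, at 55.7 CPM per kb, and lag-1 lowest, at 5.07. gld-2 was seventh of 8 in N2, at 44.3 CPM per kb, and second in PL, at 28.2, next to lst-1 at 25.9, and the libraries of gld-2 (26.4 to 30) and lst-1 (24.4 to 27.5) overlapped. sygl-1 was second in N2, at 141 CPM per kb, and sixth in PL, at 15.4.

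The level of the members in PL also moved with time. In DMSO, sygl-1 was at 11.6, 14.2 and 15.4 CPM at 1 h, 14 and 11.7 CPM at 2 h, 17.2 and 20.7 CPM at 4 h, 34.9 and 32.5 CPM at 6 h, and 81 and 66.6 CPM at 18 h. Its 6 h and 18 h libraries were above all PL libraries of the earlier hours in DMSO. All 8 members were higher in PL at 18 h than at 6 h in DMSO, by log2 fold changes of 0.76 (lag-1) to 1.17 (gld-1), where 16.7 percent of genes were higher. The sygl-1 call was lost without PL replicate 1 at 18 h (0.98, adjusted p = 0.0537) and that of lag-1 with no filter (0.53, 0.0753), and with all 52 libraries in the fit only lst-1 and gld-2 passed. gld-2 was lowest at 6 h, at 99.7 and 113 CPM, and its 224 and 188 CPM at 18 h compare with 200 and 190 CPM in untreated PL. In U0126 all 8 were higher as well, by 0.93 (gld-2) to 2.28 (sygl-1), where 22.9 percent of genes were. glp-1 was at 336 and 303 CPM at 18 h in U0126, against 91.8 and 108 CPM at 6 h (log2 fold change 1.68, SE 0.18, edgeR adjusted p = 5.49e-08).

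Markers moved with the members in PL. In DMSO, germline markers summed to 3610 and 3230 CPM at 18 h, against 1980 and 2200 CPM at 6 h, and oocyte markers to 11500 and 9110 CPM at 18 h, against 6260 and 6800 CPM at 6 h. Sperm markers summed to 560 and 759 CPM at 18 h, against 1080 and 1230 CPM at 6 h. The germline markers' median log2 fold change was 0.74 in DMSO and 1.10 in U0126, beside 0.95 and 1.64 for the members, and its part in them was not tested.

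Fewer members passed this test in N2 with edgeR. In DMSO, gld-1 was at 454 and 407 CPM at 18 h, against 739 and 685 CPM at 6 h (log2 fold change -0.72, SE 0.23, edgeR adjusted p = 0.038). gld-2 (-0.41) and nos-3 (-0.57) were also lower, so 3 of 8 members fell, where 4.93 percent of genes did. DESeq2 called 6 of 8, adding glp-1 (-0.49), lag-1 (-0.38) and sygl-1 (-0.68), and RLE scaling added glp-1 (adjusted p = 0.0447) and lag-1 (0.0196). No filter added glp-1 (-0.60) and sygl-1 (-0.79), and with all 52 libraries in the fit none of the 3 passed. Germline markers summed to 2990 and 2910 CPM at 18 h, against 4100 and 4230 CPM at 6 h (median log2 fold change -0.43), and their part was not tested. In U0126, lag-1 (0.49) and gld-3 (0.61) were higher at 18 h in N2, 2 of 8, where 5.04 percent of genes were, while DESeq2 called 5 of 8, adding glp-1 (0.67), lst-1 (0.36) and nos-3 (0.33). The germline markers' median was 0.28, and neither lag-1 nor gld-3 passed with all 52 libraries in the fit. The calls of gld-1 and gld-2 in DMSO and of gld-3 in U0126 were lost when any 1 of their 4 libraries was left out, and that of lag-1 when any but U0126 replicate 1 at 6 h was. These comparisons share libraries with those of drug and of genotype. Whether the change with time differed between PL and N2 was not tested.

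**Figure D2:**
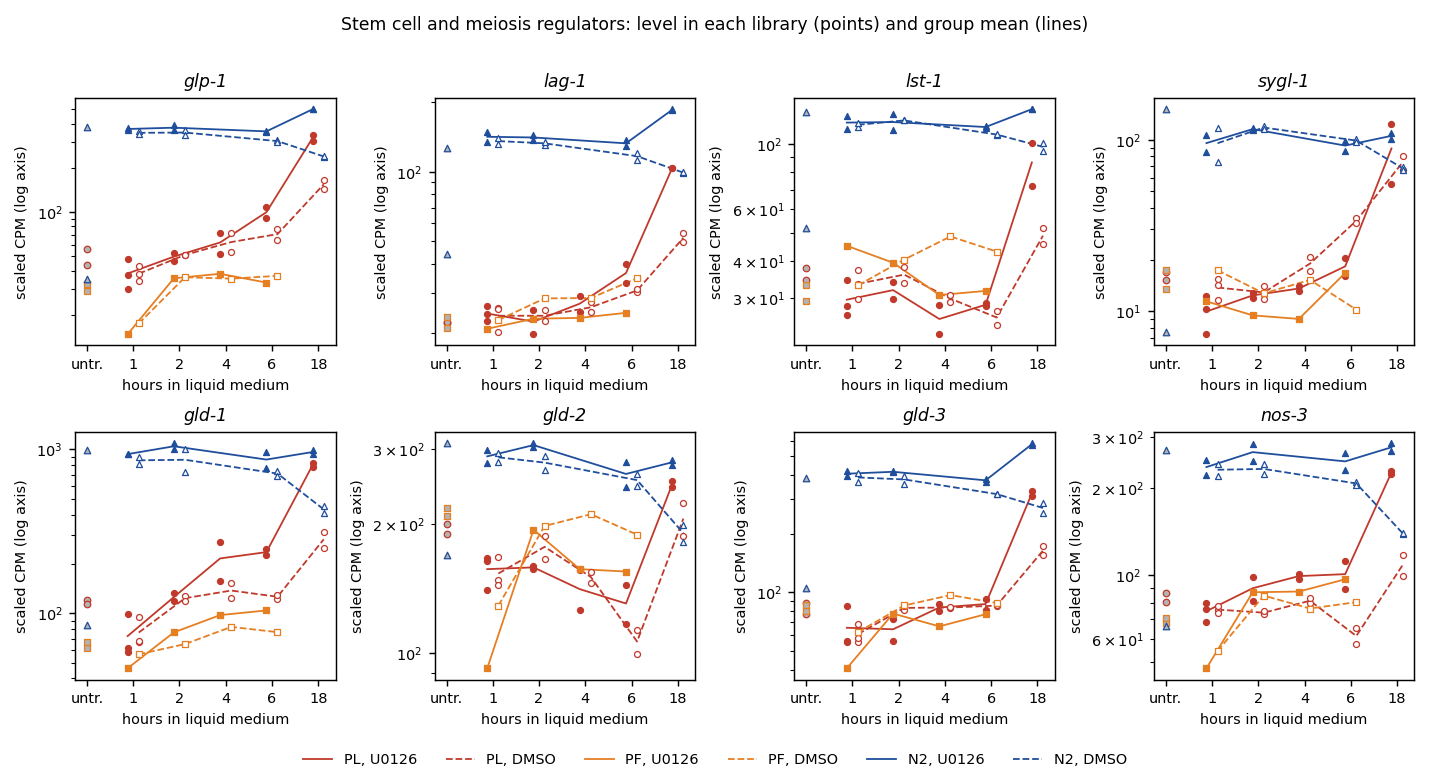
Scaled CPM (log axis) of each member in every library, by hour in liquid medium, with lines through group means, filled points for U0126, open points for DMSO and grey points for untreated worms. PL and PF lie below N2 at 1 to 6 h for every member, and PL in U0126 at 18 h reaches 828 CPM for gld-1 and 336 CPM for glp-1.

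At 18 h all 8 members were higher in U0126 than in DMSO in N2. Between 6 and 18 h, 2 of 8 members were called higher in U0126 and 3 of 8 lower in DMSO. The gld-1 mean went from 867 to 964 CPM in U0126 and from 712 to 431 CPM in DMSO. glp-1 was at 500 and 501 CPM in U0126, against 238 and 240 CPM in DMSO (log2 fold change 1.07, SE 0.17, edgeR adjusted p = 2.44e-05). gld-1 was at 942 and 986 CPM in U0126, against 454 and 407 CPM in DMSO (log2 fold change 1.16, SE 0.24, edgeR adjusted p = 0.000264). The 2 drug-treated libraries were above both vehicle libraries for every member, and the share of all genes separated this way was not counted. lag-1 (0.90), gld-3 (1.09) and nos-3 (0.99) were higher by similar amounts, and lst-1 (0.42), gld-2 (0.55) and sygl-1 (0.62) by less. The 8 of 8 stand beside 23.0 percent of all genes called higher, and a median over all genes of -0.40. With RLE scaling that median was 0.00 and the 8 calls stayed, but the calls over all genes were 5107 higher and 3952 lower, against 3757 higher and 5867 lower with TMM.

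Other germ line lists were higher in U0126 too, beside the members, in N2 at 18 h. All 14 germline markers were higher in U0126 (median log2 fold change 0.88), at 6180 and 6040 CPM in sum, against 2990 and 2910 CPM in DMSO, and so were all 18 meiotic chromosome genes (0.88), among them the cohesin gene rec-8 (1.16). Of 19 PUF, GLD and meiotic-entry partners 14 were higher (median 0.92), among them nos-1 (1.77) and gls-1, whose protein binds GLD-3 (1.12), and so were 10 of 14 GLD-1 target mRNAs (median 0.92). The 17 other Notch pathway genes split, 6 higher and 6 lower, with hop-1 (1.29) and apx-1, a Notch ligand gene (1.17), among those higher. Body and embryo markers were lower in U0126: all 8 intestine and all 8 muscle markers (median -1.47 each), and 7 of 10 embryo markers tested (median -3.37). Embryo markers summed to 18.4 and 15.7 CPM in U0126, with 3 and 5 of 14 at 0, against 80.6 and 74.9 CPM in DMSO, with 0 and 1 at 0. The part of this shift in the members' difference was not tested. Relative to the germline markers' median change, the members ran from 0.46 below (lst-1) to 0.28 above (gld-1). The sygl-1 call was lost when any 1 of the 4 libraries was left out (edgeR adjusted p 0.0732 to 0.149). That of lst-1 was lost without DMSO replicate 2 (0.0909), U0126 replicate 1 (0.0573) or U0126 replicate 2 (0.0518), and with all 52 libraries in the fit glp-1, lst-1, sygl-1 and gld-1 did not pass.

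At 1, 2 and 6 h in N2, 0 of 8 members passed edgeR's quasi-likelihood test, where 0.0674, 1.06 and 3.91 percent of genes did. Of these 24 tests, the unadjusted p was under 0.05 in 0, 0 and 1 at the 3 hours, and DESeq2 called 0, 0 and 2 (lag-1 and nos-3 at 6 h). The largest difference at 6 h was gld-1, at 765 and 969 CPM in U0126, against 739 and 685 CPM in DMSO (log2 fold change 0.29, SE 0.23).

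In PL the first members to pass the test of the drug were gld-1 and nos-3, at 6 h. gld-1 was at 227 and 245 CPM in U0126, against 122 and 130 CPM in DMSO (log2 fold change 0.91, SE 0.24, edgeR adjusted p = 0.0399). nos-3, whose protein is a Nanos homologue, was at 89.1 and 112 CPM in U0126, against 57.5 and 65.2 CPM in DMSO (log2 fold change 0.71, SE 0.12, edgeR adjusted p = 0.00152). In both genes every drug-treated library was above every vehicle library, a pattern not counted over all genes. These 2 of 8 stand beside 2.21 percent of genes called higher. With all 52 libraries in the fit neither gene passed (nos-3 at edgeR adjusted p = 0.78). The gld-1 call was lost when any 1 of the 4 libraries was left out (adjusted p 0.113 to 0.292), with RLE scaling (0.113) and with no filter (0.0722). That of nos-3 was lost with no filter (0.231) and without DMSO replicate 1 (0.0624) or U0126 replicate 2 (0.0727).

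The Notch target sygl-1 lay in the other direction in PL at 6 h, at 16.1 and 20.4 CPM in U0126, against 34.9 and 32.5 CPM in DMSO. The groups did not overlap, but the difference did not pass the test (log2 fold change -0.88, SE 0.27, edgeR adjusted p = 0.0892). It passed with DESeq2 (-0.97, adjusted p = 0.0276) and with replicate numbers as a block (-0.89, adjusted p = 0.00812). The receptor glp-1 was at 91.8 and 108 CPM in U0126, against 65.1 and 76.7 CPM in DMSO (log2 fold change 0.49, adjusted p = 0.154, and 0.00399 with the block). lst-1, the other Notch target, was at 28.2 and 28.9 CPM in U0126, against 24.4 and 27.3 CPM in DMSO, and lag-1, gld-2 and gld-3 differed by 0.25, 0.30 and 0.03 on the log2 scale without passing.

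Within each library, the ratio of sygl-1 to gld-1 put these changes on 1 scale that does not depend on depth or scaling. In PL at 6 h its log2 was -3.82 and -3.58 in U0126, against -1.80 and -2.0 in DMSO. At 4 h it was -3.59 and -4.29 in U0126, against -2.84 and -2.87 in DMSO, and at 18 h -2.75 and -3.82 in U0126, against -1.96 and -1.91 in DMSO. The drug-treated libraries were lower in each of these 3 hours, while the ranges overlapped at 1 and 2 h. In N2 the ratio was lower in U0126 at 3 hours too. It was -3.22 and -3.14 in U0126, against -3.06 and -2.66 in DMSO, at 2 h, -3.14 and -3.30 in U0126, against -2.87 and -2.82 in DMSO, at 6 h, and -3.10 and -3.29 in U0126, against -2.70 and -2.61 in DMSO, at 18 h. The single PF libraries were lower in U0126 at 1, 2 and 4 h and higher at 6 h, at -2.64 in U0126, against -2.90 in DMSO. The ratio was singled out after its values were seen, and it has no test.

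**Figure D3:**
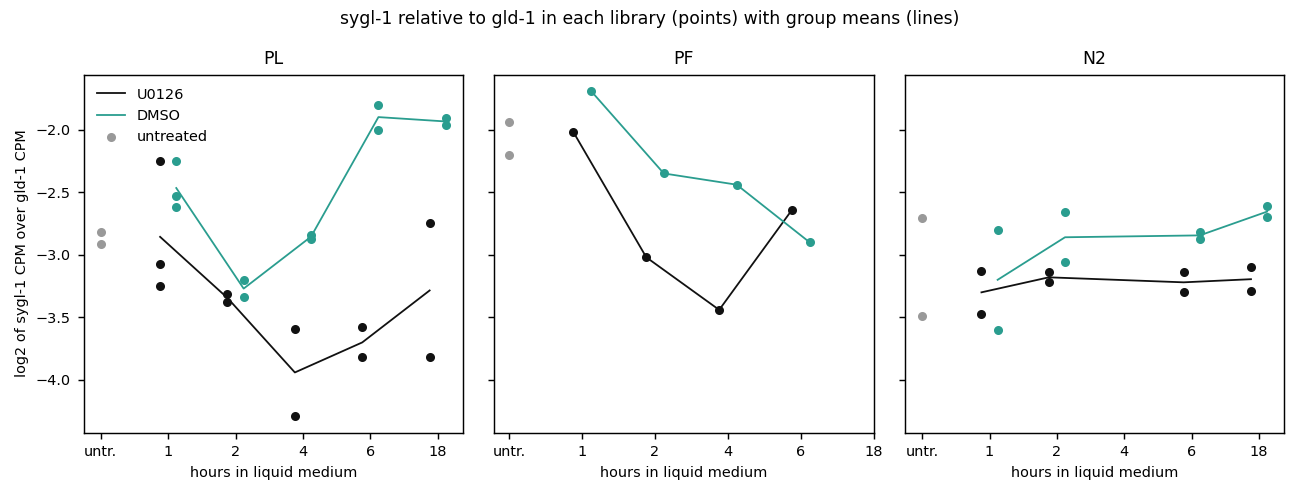
Log2 ratio of sygl-1 to gld-1 CPM in each library of PL, PF and N2, by hour, with lines through the means of U0126 (black) and DMSO (teal) groups and grey points for untreated worms. In PL at 6 h the U0126 libraries lie at -3.82 and -3.58, below the DMSO libraries at -1.80 and -2.0.

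The neighbouring lists differed in how many genes passed in PL at 6 h, where 2.21 percent of all genes were called higher. Of 18 meiotic chromosome genes 6 were higher in U0126, among them the axis gene htp-3 (log2 fold change 0.53), the pairing gene zim-1 (0.65) and dsb-1, needed for meiotic double-strand breaks (0.92). Of 19 PUF, GLD and meiotic-entry partners tested, 2 were higher: larp-1 (0.60) and fbf-2, the close relative of fbf-1 (0.77), whose counts may share reads with it. None of 17 other Notch pathway genes, of 14 GLD-1 target mRNAs and of 14 replication and mitosis genes passed. Germline markers summed to 2130 and 2430 CPM in U0126, against 1980 and 2200 CPM in DMSO, and oocyte markers to 6860 and 6580 CPM in U0126, against 6260 and 6800 CPM in DMSO. Each of those sums overlapped between the groups. The oocyte markers' mean log2 of CPM plus 1 was 6.83 and 7.02 in U0126, against 7.05 and 7.15 in DMSO.

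Before 6 h no member passed in PL: 0 of 8 at 1, 2 and 4 h, where 0.368, 1.50 and 2.04 percent of genes did (edgeR; 1, 2 and 2 members had an unadjusted p under 0.05, and DESeq2 called 0 at each hour). At 4 h gld-1 was at 158 and 274 CPM in U0126, against 123 and 152 CPM in DMSO (log2 fold change 0.65, SE 0.24, edgeR adjusted p = 0.248, and 0.00924 with the replicate block). Leaving out 1 library moved it between 0.20 and 1.00, and it passed without U0126 replicate 1 (1.00, adjusted p = 0.0382).

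At 18 h 6 of 8 members were higher in U0126 than in DMSO in PL, where 20.7 percent of genes were higher and the median over all genes was -0.15. gld-1 showed the largest rise, to 828 and 778 CPM in U0126, against 315 and 250 CPM in DMSO (log2 fold change 1.50, SE 0.24, edgeR adjusted p = 3.51e-05). glp-1 was at 336 and 303 CPM in U0126, against 165 and 144 CPM in DMSO (log2 fold change 1.05, SE 0.17, edgeR adjusted p = 5.16e-05). The glp-1 call was lost with all 52 libraries in the fit (edgeR adjusted p = 0.144). lag-1 (1.00), lst-1 (0.82), gld-3 (0.98) and nos-3 (1.07) rose too. In all 6 genes the groups did not overlap, and the share of all genes without overlap was not counted. gld-2 was at 252 and 244 CPM in U0126, against 224 and 188 CPM in DMSO (log2 fold change 0.27, edgeR adjusted p = 0.117, and 0.0375 with the replicate block). sygl-1 was at 123 and 55.1 CPM in U0126, against 81 and 66.6 CPM in DMSO, so 1 drug-treated library lay above and 1 below both vehicle libraries. Without U0126 replicate 1 its log2 fold change was -0.42, and without replicate 2 it was 0.76 (adjusted p = 0.0358).

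Germline markers rose beside them, 11 of 14 (median log2 fold change 0.62), at 5160 and 5150 CPM in U0126, against 3610 and 3230 CPM in DMSO. Of GLD-1 target mRNAs 10 of 14 were higher (median 1.28), among them spn-4 (1.52) and oma-2 (1.57), and so were 8 of 16 oocyte markers, a list that holds some of the same genes. Of 19 PUF, GLD and meiotic-entry partners 10 were higher (median 0.58), among them nos-1 (2.06) and prom-1 (1.35), and of 18 meiotic chromosome genes 16 were (median 0.88). Of 17 other Notch pathway genes 6 rose and 2 fell, with hop-1 (1.40) and sup-17 (0.76) among the rises. Body markers were lower in U0126. Muscle markers summed to 5900 and 6030 CPM in U0126, against 8680 and 8600 CPM in DMSO. Intestine markers summed to 3500 and 3690 CPM in U0126, against 4570 and 4230 CPM in DMSO. The part of all these lists in the members' difference was not tested. Over all genes, RLE scaling gave 2866 higher and 1731 lower calls at this hour, against 3379 and 1227 with TMM.

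**Figure D4:**
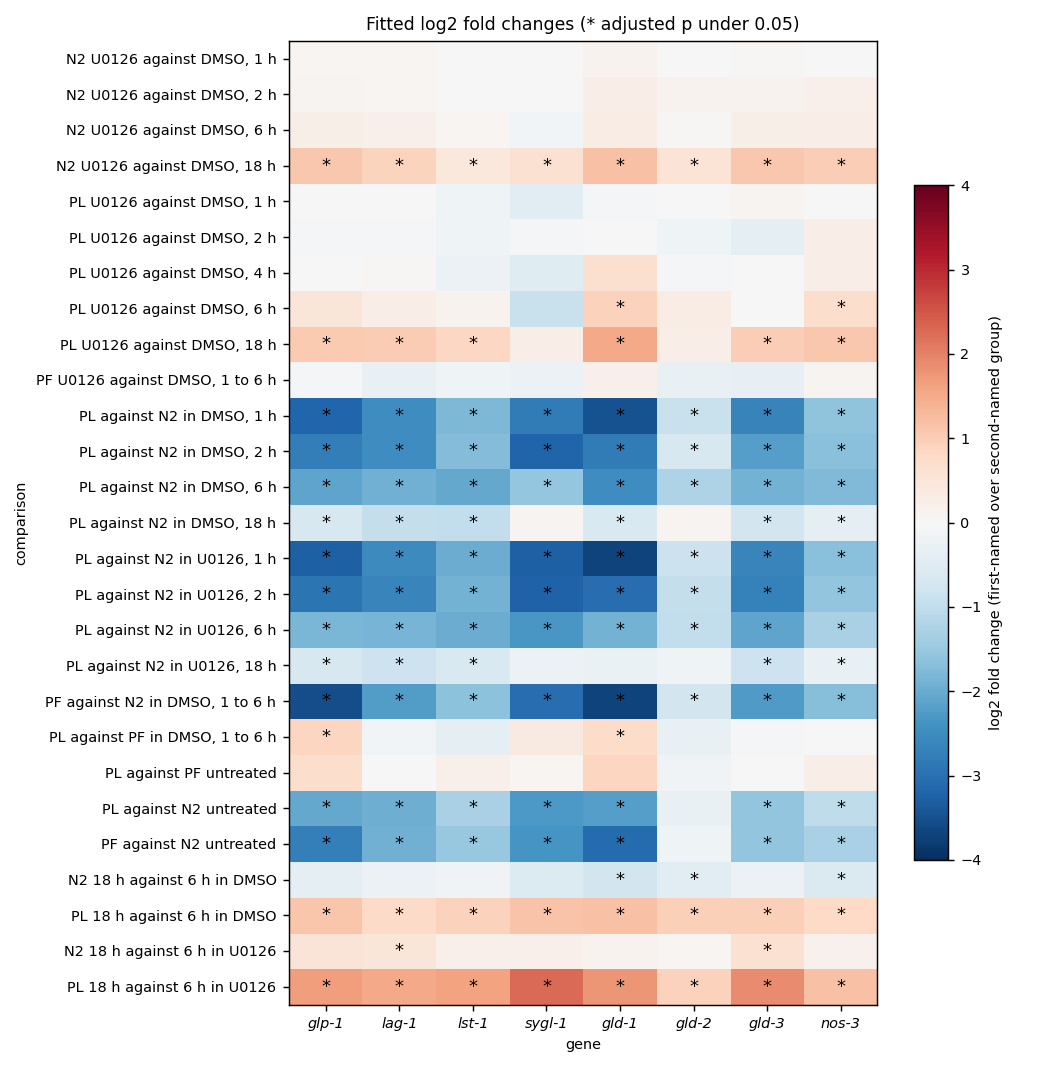
Fitted log2 fold change (colour) of the 8 members in 27 comparisons, first-named group over second-named, with an asterisk where the adjusted p was under 0.05. U0126 against DMSO has asterisks for all 8 members in N2 and 6 in PL at 18 h, and 2 in PL at 6 h.

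Whether the size of the members' drug response differed between PL and N2 depended on the processing. The difference of responses passed for 0 of 32 tests over 1, 2, 6 and 18 h with edgeR, where 0.00, 0.00613, 0.282 and 8.13 percent of genes passed, and 3 tests had an unadjusted p under 0.05. DESeq2 called 4, all at 18 h. At 6 h sygl-1 differed by -0.79 (SE 0.37) and gld-1 by 0.62 (SE 0.33), PL minus N2. At 18 h the outcome turned on scaling: the median over all genes was 0.29 with TMM and -0.23 with RLE, and gld-2 was -0.28 (adjusted p = 0.345) with TMM and -0.82 (adjusted p = 0.00237) with RLE.

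PF, the other sperm-making genotype, had the members low as well. Over 1, 2 and 6 h in DMSO all 8 were lower in PF than in N2, in a comparison that shares its N2 libraries with that of PL, where 37.9 percent of genes were. gld-1 was at 56.1 to 76.6 CPM in these PF libraries, against 685 to 1000 CPM in N2 (log2 fold change -3.70, SE 0.20, edgeR adjusted p = 1.33e-07). glp-1 (-3.55) and sygl-1 (-3.06) followed, and gld-2 again fell least (-0.75). In PF, 0 of 8 members passed for U0126 against DMSO over 1 to 6 h (edgeR; 2 had an unadjusted p under 0.05, DESeq2 called 0), where 0.641 percent of genes did. This test compared 4 libraries with 4, with 3 residual degrees of freedom.

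PL and PF differed in 2 members. Over 1 to 6 h in DMSO, glp-1 was at 33.8 to 76.7 CPM in PL (median 51.3, 9 libraries), against 17.5 to 36.9 CPM in PF (median 35.7, 4 libraries), with a log2 fold change of 0.87 (SE 0.13, edgeR adjusted p = 0.00636) at matched hours. gld-1 was at 67 to 152 CPM in PL (median 122), against 56.1 to 82.5 CPM in PF (median 70.7), with a log2 fold change of 0.72 (SE 0.13, edgeR adjusted p = 0.0145). The ranges over all hours overlapped in both genes. Of all genes 5.05 percent were called higher in PL. The gld-1 call was lost without the PF library at 6 h (0.67, adjusted p = 0.0546). The other members did not pass, with nos-3 at 0.02 and lst-1 at -0.37 (adjusted p = 0.0844). lst-1 passed with DESeq2 (-0.38, adjusted p = 0.0392), without PL replicate 3 at 1 h (-0.40, 0.0397) and in the fit of 46 libraries (-0.40, 0.00222), where gld-2 did too (-0.31, 0.00426). Beside them 6 of 16 oocyte markers and 6 of 14 GLD-1 target mRNAs were higher in PL, and 5 of 14 sperm markers were lower.

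In untreated worms glp-1 was at 55.8 and 43.9 CPM in PL, against 29.3 and 32.7 CPM in PF, and gld-1 at 120 and 114 CPM in PL, against 61.6 and 66.5 CPM in PF. These groups did not overlap, but with all 52 libraries in the fit 0 of 8 members passed (edgeR; 0 had an unadjusted p under 0.05, DESeq2 called 0), where 1.01 percent of genes did. Without N2 untreated replicate 2 in the fit, glp-1 (0.69, adjusted p = 0.0219) and gld-1 (0.87, adjusted p = 0.0247) passed.

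Against untreated N2, 7 of 8 members were lower in PL and 7 of 8 in PF, where 25.7 and 25.8 percent of genes were, and gld-2 did not pass in either. These comparisons depend on which N2 library is taken. sygl-1 was at 17 and 15.1 CPM in PL, against 151 CPM in N2 replicate 1 and 7.51 CPM in N2 replicate 2. gld-1 was at 120 and 114 CPM in PL, against 989 and 84.3 CPM in the N2 replicates. gld-2 was at 200 and 190 CPM in PL, against 309 CPM in N2 replicate 1 and 169 CPM in N2 replicate 2. Its log2 fold change was -0.66 in PL and -0.54 in PF without N2 replicate 2. Without N2 replicate 1 it was 0.21 in PL and 0.34 in PF. Without N2 replicate 1, sygl-1 was higher than in N2, by a log2 fold change of 1.10 in PL and 1.03 in PF. Without N2 replicate 2, the library that stood apart, sygl-1 was lower than in N2, at -3.23 in PL and -3.30 in PF. Each of these fits leaves 1 untreated N2 library.

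Across the 46 libraries from liquid culture the members' levels were correlated, as a description of libraries that share genotype and time. Pearson's r of log2 CPM was 0.99 for lag-1 with gld-3 and 0.98 for glp-1 with gld-1, and lowest for sygl-1 with gld-2, at 0.77. Within the 22 PL libraries it was 0.48 for sygl-1 with gld-2 and 0.78 for sygl-1 with gld-1. Within the 16 N2 libraries sygl-1 stood lower, at 0.47 with lag-1, 0.49 with gld-3 and 0.56 with glp-1, while glp-1 with gld-3 was at 0.98. The genes most like glp-1 were him-17 (r = 0.993), srgp-1 and rif-1.1, and those most like gld-1 were plk-3 (0.989), car-1 and egg-6. sygl-1 was most like mei-1 (0.982), Y75B12B.1 and the replication clamp gene pcn-1. gld-2 stood nearest to F55A12.1 (0.952), panl-3 and math-33, and 139 genes reached r of 0.9 with it, against 1702 with sygl-1 and 2761 with lag-1. lag-1 was most like ints-7, orc-2 and npp-22, lst-1 most like M02B1.3, F49C12.9 and slc-17.2, gld-3 most like dnj-5, aka-1 and oma-1, and nos-3 most like cdk-12, npp-3 and wago-4.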

How the data were processed

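One table of raw read counts per gene was deposited by the authors for each of 52 libraries. Per the submitters' processing notes, CASAVA, TopHat and DESeq were used with the ce10 build; the sources used here give neither versions nor the counting program. Libraries were TruSeq polyA, per the labels' protocols, and whether counting used strand is not given, so counts of glp-1, lag-1, gld-2 and nos-3, whose exons overlap other genes by up to 145 bases per gene, are uncertain there. Of 45461 IDs, 44118 were named from an Ensembl WBcel235 annotation, used for names and exon lengths only. Each file ends in 5 lines of unassigned reads, left out. Reads assigned to no feature made up 48.2 to 54.8 percent of counted, ambiguous and no-feature reads (blank in 1 library).

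Groups came from genotype, treatment and hour. A gene entered a fit if it reached 1 CPM in 2 or more of its libraries. Library sizes were scaled by TMM, and edgeR 4.0.16 (R 4.3.3; trended dispersion, two-sided quasi-likelihood test) gave p-values, adjusted by Benjamini-Hochberg over all genes of a comparison and called under 0.05. The 46 liquid-culture libraries were fitted together (26 groups, 20 residual degrees of freedom), untreated comparisons in all 52, and PF comparisons on their own libraries with hour as a factor. The fit of 46 libraries was tested on simulated counts for U0126 against DMSO in PL at 6 h. Printed CPM are scaled over all 52 libraries. Replicate libraries differed beyond sampling noise (chi-square per degree of freedom at least 2.69). Same-numbered U0126 and DMSO libraries of PL deviated together (r 0.148 to 0.925 over genes), so their block fit is given where it changes a call; the labels do not state the pairing. The members and lists were chosen with earlier results of these data known. Named genes were the 8 members, up to 4 per list by adjusted p, and the 3 most correlated with each member. Alternatives were RLE scaling, DESeq2 1.42.0, no filter, a robust fit, other library sets, the block and each library left out.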

Additional observations from a re-analysis of the deposited data

Results flagged for a closer look

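At 2 h the drug response of gld-2 and of gld-3 ran in opposite directions in PL and N2, with no overlap between U0126 and DMSO libraries in either genotype. gld-2 was at 160 and 157 CPM in PL in U0126, against 166 and 188 CPM in DMSO, and at 309 and 303 CPM in N2 in U0126, against 289 and 268 CPM in DMSO. The response differed by -0.30 on the log2 scale, PL minus N2. gld-3 was at 73.1 and 55.8 CPM in PL in U0126, against 81.3 and 84.7 CPM in DMSO, and at 413 and 419 CPM in N2 in U0126, against 398 and 362 CPM in DMSO, a difference of -0.49. Neither difference passed the test of the difference itself (edgeR adjusted p = 1 for both). How many of all genes show the same pattern was not counted, so no background stands beside these genes.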

How the results depend on the processing

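Counts of members called depended most on which libraries shared the estimate of spread. With all 52 libraries in the fit, 4 rather than 8 tests passed for U0126 in N2, 5 rather than 8 for U0126 in PL, and 2 rather than 11 for 18 h against 6 h in DMSO. With the 46 liquid-culture libraries, 1 rather than 0 passed for U0126 in PF and 4 rather than 2 for PL against PF in DMSO. Without N2 untreated replicate 2 in the fit, 2 rather than 0 passed for PL against PF untreated. The difference in drug response had 0 calls, against 1 with RLE scaling, 4 with DESeq2, 1 with the replicate block (lst-1 at 18 h, 0.38, adjusted p = 0.0376) and 1 with the N2 numbers of 6 h crossed, an alternative chosen after seeing the data. DESeq2 reversed the response differences of lag-1 (-0.44) and nos-3 (-0.46) at 18 h. Beside the values given in the report, the replicate block brought glp-1 past the threshold in N2 at 18 h against 6 h in U0126 (0.50, adjusted p = 0.0147), and it changed no other call. Same-numbered U0126 and DMSO libraries of N2 did not all deviate together (r -0.139 at 6 h and -0.018 at 18 h). The block fits still used the N2 numbers, as they did those of PL. Block values for N2 and for the response difference therefore rest on a pairing that the labels do not state.

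Leaving out 1 library gave 1 to 3 calls for PL against PF in DMSO, 3 to 8 for PL against N2 untreated, 3 to 8 for PF against N2 untreated and 0 to 1 for the response difference. It moved PL against N2 untreated between -2.92 and 0.51 for glp-1, -3.08 and 0.47 for gld-1, -3.23 and 1.10 for sygl-1 and -1.70 and 0.33 for nos-3, and PF against N2 untreated between -3.30 and 1.03 for sygl-1 and -1.97 and 0.06 for nos-3. All these upper values were those without N2 untreated replicate 1. The robust fit kept all 248 results, and most PF groups of 1 library limit what can be detected there.

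RLE scaling moved the balance of all genes called, given here as higher and lower with RLE, then with TMM. For U0126 it gave 626 and 362 against 180 and 458 in N2 at 6 h, and 141 and 44 against 360 and 45 in PL at 6 h. For PL against N2 at 18 h it gave 4677 and 3974 against 3922 and 5083 in DMSO, and 4285 and 5206 against 5343 and 3605 in U0126. For 18 h against 6 h it gave 1310 and 838 against 2730 and 397 in PL in DMSO, 2884 and 2902 against 3735 and 1373 in PL in U0126, 1513 and 2339 against 1710 and 805 in N2 in DMSO, and 2235 and 1002 against 823 and 1262 in N2 in U0126. For the response difference it gave 9 and 16 against 34 and 12 at 6 h, and 295 and 1979 against 1142 and 185 at 18 h.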
